A study of Mus musculus with 3 samples.

Results

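The NF-κB genes of the flexor digitorum longus (FDL) tendon were followed across cell classes by single-cell RNA sequencing (scRNAseq). The set holds 10 genes, picked by symbol from the 32285 genes counted: the subunit genes Nfkb1, Nfkb2, Rel, Rela and Relb, the IκB inhibitor genes Nfkbia, Nfkbib and Nfkbie, the atypical IκB gene Bcl3, and Tnfaip3, which encodes the deubiquitinase A20. The selection is by name and not by a threshold on these data, although earlier results of these data were known when it was made. Those results name Bcl3 and Tnfaip3 among the genes expressed by tenocytes of the aged group. The study asked what natural aging of the tendon shares with the loss of Scleraxis-lineage cells in young mice. Each of its 3 groups was 1 library from 16 pooled FDL tendons of mice of both sexes, all labelled as strain C57BL/6J. The 6 M WT group (Scx-Cre-; DTR F/+) and the 6 M DTR group (Scx-Cre+; DTR F/+), here WT and DTR, both received 5 injections of diphtheria toxin (DT). Cre was not inducible, so DT could kill any DTR cell whose lineage had ever expressed Scx. The labels give the age of these mice as 3 M, the age at injection, and the study's methods put the harvest at 6 M. The 21 M B6 group (C57BL/6J, here B6) carried neither allele and received no DT. Tendons were digested for 120 min in WT and 90 min in the other groups. Genotype and digestion time cannot be told apart between DTR and WT, and neither can age, digestion time, DT and the DTR allele between B6 and WT. Values in threes follow the order WT, DTR, B6. With 1 library per group nothing was tested, and the intervals in parentheses are exact 95% intervals that cover counting error only.

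NF-κB factors are dimers of proteins that share a Rel homology domain. RelA, c-Rel and RelB carry a domain that switches genes on, whereas the Nfkb1 and Nfkb2 products are precursors that are trimmed to the DNA-binding subunits p50 and p52. In resting cells IκB proteins hold the dimers in the cytoplasm, until signals from TNF, interleukin-1 or Toll-like receptors activate the IκB kinases and the inhibitor is degraded. Several of these genes, such as Nfkbia and Tnfaip3, are themselves well-known targets of NF-κB and form its negative feedback. In tendon the pathway is known for its part in inflammation.

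The κB consensus, the motif that the dimers bind, was searched on both strands from 250 bases before to 50 bases after the start sites (RefSeq, GRCm38.p6). A window was at hand for 8 of the 10 genes. Of these, 6 (75%) held at least 1 match, against 9.55% of 27025 genes and 8.46% of 32851 windows. The windows of Rela and Nfkbib held none, and Nfkb1 and Relb had no entry. The 150 bases before the start site of the first window listed are shown for Rel, Nfkb2, Nfkbia and Tnfaip3. Rel is the subunit gene most tied to 1 cell class below, and Nfkb2 is among the genes lowest in DTR tenocyte-like cells. Nfkbia and Tnfaip3 are feedback inhibitor genes. For Nfkb2 and Tnfaip3, which have further windows, the start site differs from that of the GENCODE positions given below. Their stretches lie inside those gene spans. The start site also differs for Rela, Nfkbib, Nfkbie and Bcl3, and for Rel, whose stretch shares base 23770970 with its gene span. Capitals mark the matches, and overlapping matches form 1 run.
Rel, chr11:23770970-23771119, minus strand: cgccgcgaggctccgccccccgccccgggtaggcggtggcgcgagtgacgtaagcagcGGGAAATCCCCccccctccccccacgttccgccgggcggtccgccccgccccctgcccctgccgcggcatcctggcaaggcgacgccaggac
Nfkb2, chr19:46304587-46304736, plus strand: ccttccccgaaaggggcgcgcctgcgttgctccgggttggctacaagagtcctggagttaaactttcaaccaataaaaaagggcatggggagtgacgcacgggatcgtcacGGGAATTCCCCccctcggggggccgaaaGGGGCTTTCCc
Nfkbia, chr12:55492648-55492797, minus strand: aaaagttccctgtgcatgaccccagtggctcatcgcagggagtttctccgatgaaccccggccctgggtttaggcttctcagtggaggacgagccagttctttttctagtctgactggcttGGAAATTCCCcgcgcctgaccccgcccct
Tnfaip3, chr10:19015411-19015560, minus strand: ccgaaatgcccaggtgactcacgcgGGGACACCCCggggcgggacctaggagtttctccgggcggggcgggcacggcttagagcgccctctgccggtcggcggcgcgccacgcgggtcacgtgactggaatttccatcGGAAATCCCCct
Bcl3 holds its match, GGGAAGTCCC, at bases 3 to 12 after the start, and Nfkbie holds GGGGGATTCC from 106 to 97 bases before it. A match describes the letters and is not a site shown to be bound.

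The libraries held 148149903, 123918145 and 92707026 UMIs (unique molecular identifiers, 1 per captured transcript) in 15536, 16099 and 12273 barcodes, of which 8357, 6554 and 4798 passed the cell filter. Above the 10% limit for mitochondrial UMIs lay 27.6%, 43.1% and 56.5% of the barcodes. Cells were put in classes by the summed UMIs of marker genes. The numbers were 5478, 3022 and 1079 tenocyte-like, 1030, 1026 and 2216 epitenon-like, and 525, 1039 and 460 macrophage-like cells, followed by smaller T cell-like (123, 312 and 79), endothelial-like (147, 143 and 98), mural-like (143, 189 and 37) and Schwann-like (68, 88 and 50) classes. All markers were detected in their class and at least 2-fold above the other classes, except Clec3b in epitenon-like cells, at 1.51-fold in WT and 1.91-fold in B6. The classes were gated on these same markers, so this was largely set by the gate and does not establish what the cells are. Levels are given in CPM, the UMIs of a gene over all UMIs of the class on a scale of 1000000. Only the 3′ end is counted, so levels are compared between classes and libraries and not between genes. Order and overlap of classes are judged on the CPM values of the libraries, without their intervals.

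Rel was the subunit gene most tied to 1 class. It encodes c-Rel, best known from lymphoid and myeloid cells (ENSMUSG00000020275, chromosome 11, 23736847 to 23770970, minus strand). Macrophage-like cells held 592 (576 to 608) CPM in WT, 428 (418 to 439) in DTR and 389 (374 to 404) in B6. The next class, mural-like cells, gave 137, 182 and 235 CPM, so the ranges over the libraries did not meet. Tenocyte-like cells had the lowest median over libraries, at 76.8, 73.5 and 78.3 CPM, below the Schwann-like cells with 89.1, 92.4 and 89.9 CPM. After each cell with at least 2000 UMIs was thinned to 2000 UMIs, a Rel UMI was found in 56.2, 46.9 and 41.3% of macrophage-like and 13.1, 12.01 and 14.9% of tenocyte-like cells. Cells with fewer UMIs were left out of the thinned shares only, here and below. Without thinning the shares were 90.1, 86.6 and 85.4% and 47.2, 42.6 and 43.4%, at a median of 16076, 12995 and 13409.5 UMIs per macrophage-like and 12949, 12484.5 and 11435 UMIs per tenocyte-like cell. By the C1q transcripts found in tenocyte-like cells, free macrophage RNA would bring 0.724 to 0.953 CPM of Rel there, a small part of the level. T cell-like cells, with 91.4, 109 and 151 CPM, overlapped endothelial-like and epitenon-like cells.

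Rela and Relb were spread more evenly. Rela encodes p65, the activating partner in the main dimer (ENSMUSG00000024927, chromosome 19, 5637483 to 5648130, plus strand). It stood at 173, 132 and 148 CPM in mural-like, 118, 139 and 143 in Schwann-like, 169.5, 100.4 and 136 in tenocyte-like, 141, 122 and 130.5 in epitenon-like and 158, 121 and 111 in endothelial-like cells. Each of these classes overlapped the next. Macrophage-like cells, at 93.1, 82.5 and 96.5 CPM, and T cell-like cells, at 94.5, 89.3 and 90.8 CPM, lay below the endothelial-like range and overlapped each other. Macrophage-like cells thus held the highest Rel and among the lowest Rela levels. Relb encodes the partner of p52 in the slower, non-canonical branch (ENSMUSG00000002983, chromosome 7, 19606217 to 19629438, minus strand). Its levels went from 126, 104 and 98.0 CPM in mural-like to 78.7, 53.4 and 59.5 CPM in epitenon-like cells, and no class was separate from the next in order.

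Nfkb1, the gene of the p50 precursor p105, was highest in mural-like cells (ENSMUSG00000028163, chromosome 3, 135584655 to 135691547, minus strand). Part of its span is shared with Gm43430 on the same strand. Mural-like cells held 783 (733 to 835) CPM in WT, 562 (527 to 600.3) in DTR and 814 (720.3 to 916) in B6, above every library of every other class. From macrophage-like (518, 352 and 451) through epitenon-like (450.1, 361 and 436), T cell-like (298, 382 and 467), tenocyte-like (292, 187 and 306) and endothelial-like (255, 204 and 158) to Schwann-like cells (111, 188 and 152 CPM) each class overlapped the next. Nfkb2, the gene of the p52 precursor p100 (ENSMUSG00000025225, chromosome 19, 46304320 to 46312385, plus strand), overlaps Psd and AC114539.1 on the other strand. It went from 117, 99.9 and 125 CPM in T cell-like to 31.3, 48.0 and 51.4 CPM in Schwann-like cells with no gap between neighbouring classes.

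The IκB genes each had another class in first place. Nfkbia encodes IκBα, the inhibitor that is degraded and made again within an NF-κB response (ENSMUSG00000021025, chromosome 12, 55489410 to 55492647, minus strand). Endothelial-like cells held 2364 (2281 to 2450.3) CPM in WT, 2866 (2778 to 2957) in DTR and 2305 (2208 to 2405) in B6, above all other classes. Tenocyte-like (1578, 1446 and 1907), epitenon-like (1533, 1779 and 1512), mural-like (1440.0, 1501 and 1696) and macrophage-like cells (1368, 1653 and 1283 CPM) formed an overlapping middle. A gap separated these from Schwann-like (356, 628 and 533) and T cell-like cells (265, 358 and 416 CPM). Free tenocyte RNA, traced by tenocyte markers, would bring 29.8 CPM to the Schwann-like level of WT.

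Nfkbib encodes IκBβ (ENSMUSG00000030595, chromosome 7, 28758251 to 28767512, minus strand) and overlaps Ccer2 and Sirt2 on the other strand. Macrophage-like cells were highest with 172 (164 to 181) CPM in WT, 135 (129 to 141) in DTR and 128 (119.8 to 137) in B6, apart from the endothelial-like cells with 54.9, 64.5 and 67.3 CPM. Mural-like cells were lowest by the median, at 33.0, 35.9 and 38.6 CPM, and overlapped Schwann-like cells. Nfkbie encodes IκBε (ENSMUSG00000023947, chromosome 17, 45555703 to 45563169, plus strand). Here mural-like cells stood apart, with 60.8 (47.6 to 76.6) CPM in WT, 50.7 (40.3 to 62.9) in DTR and 74.2 (48.0 to 109.6) in B6. Tenocyte-like cells followed at 25.7, 10.1 and 21.7 CPM and epitenon-like cells were last by the median at 8.47, 4.53 and 10.4 CPM. Mural-like cells therefore came first for Nfkbie and last for Nfkbib. In epitenon-like cells of WT free tenocyte RNA would bring 1.54 CPM of Nfkbie if all tenocyte marker UMIs there were free RNA.

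Bcl3 encodes a nuclear IκB protein that binds p50 and p52 dimers on DNA (ENSMUSG00000053175, chromosome 7, 19808462 to 19822770, minus strand), and Gm16174 and Gm16175 overlap it on the other strand. Mural-like cells held 169, 115 and 193, endothelial-like cells 113, 66.6 and 137 and Schwann-like cells 69.8, 70.2 and 107 CPM. T cell-like cells were lowest by the median, at 6.30, 13.7 and 20.9 CPM. No class was separate from the next, and the 3 largest classes each spanned a wide range over the libraries. Tenocyte-like cells gave 32.1 (30.8 to 33.4) CPM in WT, 44.2 (42.2 to 46.3) in DTR and 79.3 (74.6 to 84.2) in B6. Epitenon-like cells gave 29.9 (27.3 to 32.7), 23.1 (20.8 to 25.6) and 78.3 (75.4 to 81.4) CPM. Macrophage-like cells gave 18.4 (15.6 to 21.4), 22.8 (20.4 to 25.4) and 55.5 (49.9 to 61.4) CPM. B6 was the highest library in all of them.

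Tnfaip3 encodes A20, which edits ubiquitin chains on signalling complexes and dampens NF-κB (ENSMUSG00000019850, chromosome 10, 19000910 to 19015657, minus strand). T cell-like cells were highest with 343 (312 to 377) CPM in WT, 519 (492 to 547) in DTR and 418 (375 to 465) in B6. Endothelial-like (340.1, 269 and 241), macrophage-like (265, 272 and 235), tenocyte-like (202, 138 and 275), epitenon-like (209.7, 188 and 182) and mural-like cells (188, 265 and 119 CPM) each overlapped the next. The WT value of endothelial-like cells lies within the WT interval of T cell-like cells. Schwann-like cells lay far below, at 16.9, 22.2 and 12.8 CPM, of which free tenocyte RNA would bring 3.52 CPM in B6. T cell-like cells thus paired the highest Tnfaip3 with the lowest median Nfkbia level of the classes.

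**Figure D1:**
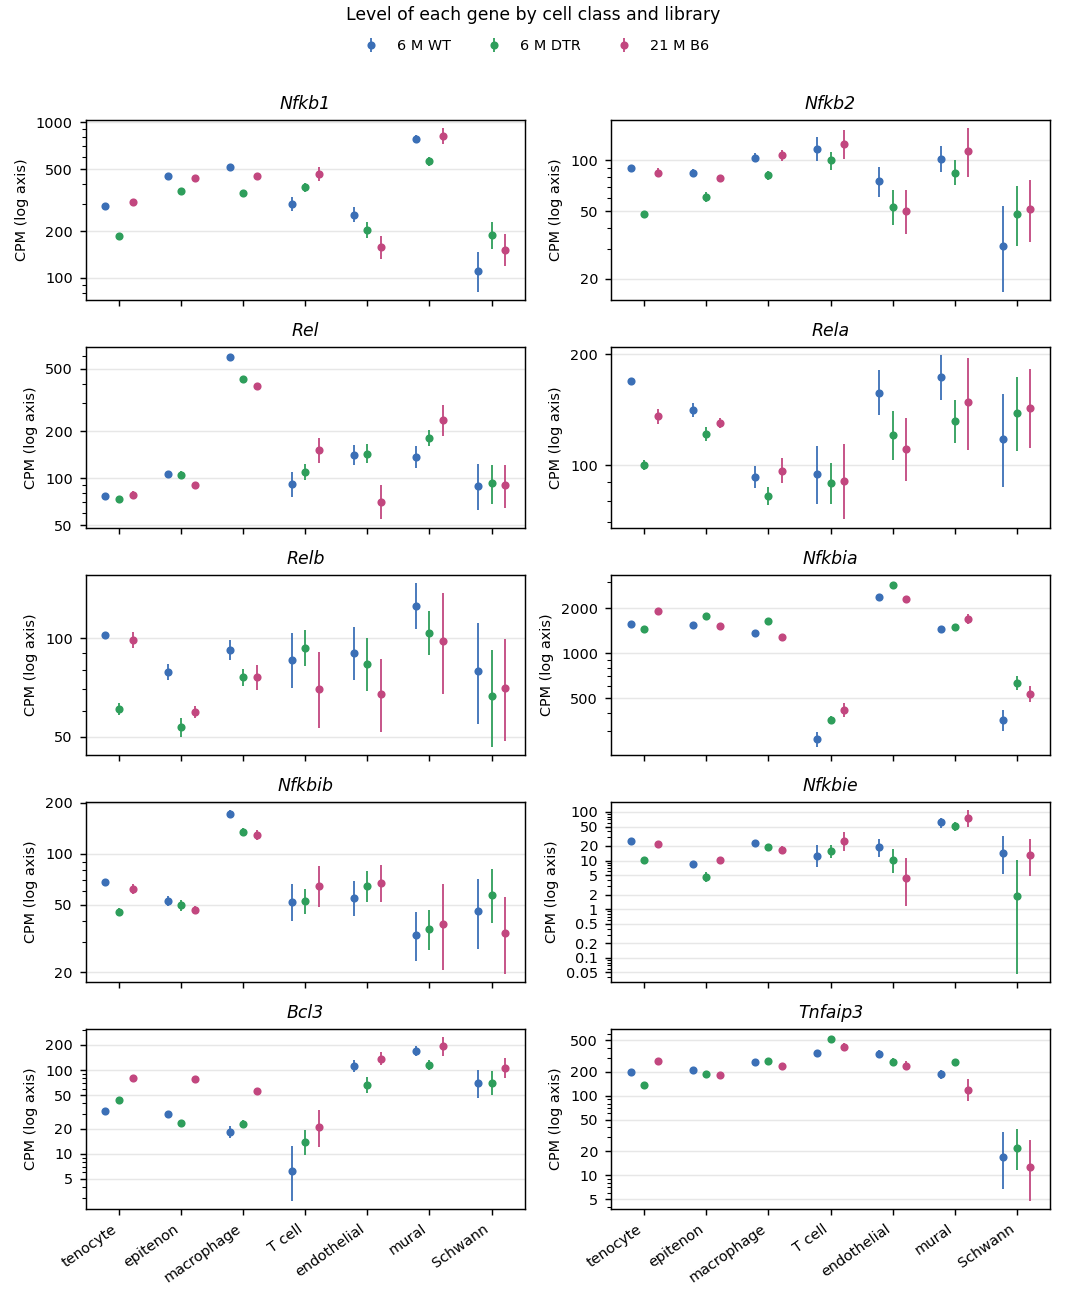
Level of each gene in CPM (log axis, own scale per gene) in 7 cell classes; points are the libraries and bars exact 95% Poisson intervals of the counts. Rel and Nfkbib were highest in macrophage-like, Nfkb1 and Nfkbie in mural-like, Nfkbia in endothelial-like and Tnfaip3 in T cell-like cells, and Bcl3 was highest in B6 in the tenocyte-like, epitenon-like and macrophage-like classes.

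Among tenocyte-like cells, most NF-κB genes were lower in DTR than in WT. Of the 10 genes, 6 were lower by at least 1.5-fold and none was higher, where 5.57% of the 7630 genes with at least 10 CPM in either library were that much lower and 6.4% higher. The inhibitor gene Nfkbie had the lowest ratio, from 25.7 to 10.1 CPM (ratio 0.392, 0.351 to 0.437). The precursor gene Nfkb2 went from 89.7 to 48.3 CPM (ratio 0.538, 0.511 to 0.566), and Nfkb1 from 292 to 187 CPM (ratio 0.639, 0.623 to 0.656). Among the activating subunit genes, Rela and Relb were lower to a like degree, whereas Rel was near WT. Rela went from 169.5 to 100.4 CPM (ratio 0.592, 0.571 to 0.613) and Relb from 102 to 60.8 CPM (ratio 0.594, 0.567 to 0.622). Nfkbib, with a ratio of 0.666 (0.631 to 0.703), lay just inside the limit, and Tnfaip3, with 0.683 (0.662 to 0.704), just outside. Under 10 other settings of the processing Nfkbib stayed past the limit in 6 and Tnfaip3 passed it in 2, and the count ran from 5 to 7. Rel and Nfkbia were closest to WT, with ratios of 0.957 (0.915 to 1.00) and 0.917 (0.908 to 0.926). Only Bcl3 had a ratio above 1, at 1.38 (1.30 to 1.47). The median log2 ratio of the 10 genes was -0.62 and that of all genes 0.04. In cells thinned to 2000 UMIs the share with a UMI was also lower, at 36.7% in WT and 26.1% in DTR for Nfkb1, and 15.2% and 8.50% for Nfkb2. Without thinning these were 79.7% and 69.0%, and 57.7% and 38.6%.

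In B6 tenocyte-like cells Bcl3 differed most from WT among the 10 genes. It alone passed 1.5-fold, from 32.1 CPM in WT to 79.3 in B6 (ratio 2.47, 2.30 to 2.66), where 6.64% of 7460 genes were higher and 11.4% lower. A count of 1 among 10 genes is near these shares and is no result about the set. Tnfaip3 followed with a ratio of 1.36 (1.31 to 1.41) and Nfkbia with 1.21 (1.19 to 1.23). Both Bcl3 and Tnfaip3 had been named from this B6 library before, so neither is an independent finding. The subunit genes ran from 0.802 (0.763 to 0.842) for Rela to 1.05 (1.01 to 1.08) for Nfkb1. The median log2 ratio was -0.01 for the 10 genes and -0.23 for all genes. DTR and B6 are both set against the same WT library. Side by side, Nfkb2 stood at 89.7, 48.3 and 84.5 CPM and Relb at 102, 60.8 and 98.6 CPM, with DTR as the low library, whereas for Bcl3 B6 was the high one.

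Other measures moved with the libraries. In tenocyte-like cells 18 immediate early genes, which respond within minutes to stimuli and to tissue dissociation, summed to 9551.9, 13032.5 and 17559.5 CPM. The median mitochondrial share was 2.77, 2.85 and 5.47%, and 60.7, 33.3 and 37.7% of the cells had a Xist UMI and no Y gene UMI. Of the tenocyte markers, Cilp2 stood at 1116, 942 and 372 CPM, Fibin at 1071, 1089 and 473 and Chad at 2805, 2568 and 1339. Thbs4 went the other way, at 2452, 3689 and 3619 CPM, and Fmod stood at 6123, 5675 and 6008. Their part in the results was not tested. With only cells called female, the log2 ratio in DTR was -1.77 for Nfkbie, -0.90 for Relb and -0.19 for Rel. With only cells called male it was -1.11 for Nfkbie, -0.63 for Relb and 0.10 for Rel, the gene whose direction turned.

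**Figure D2:**
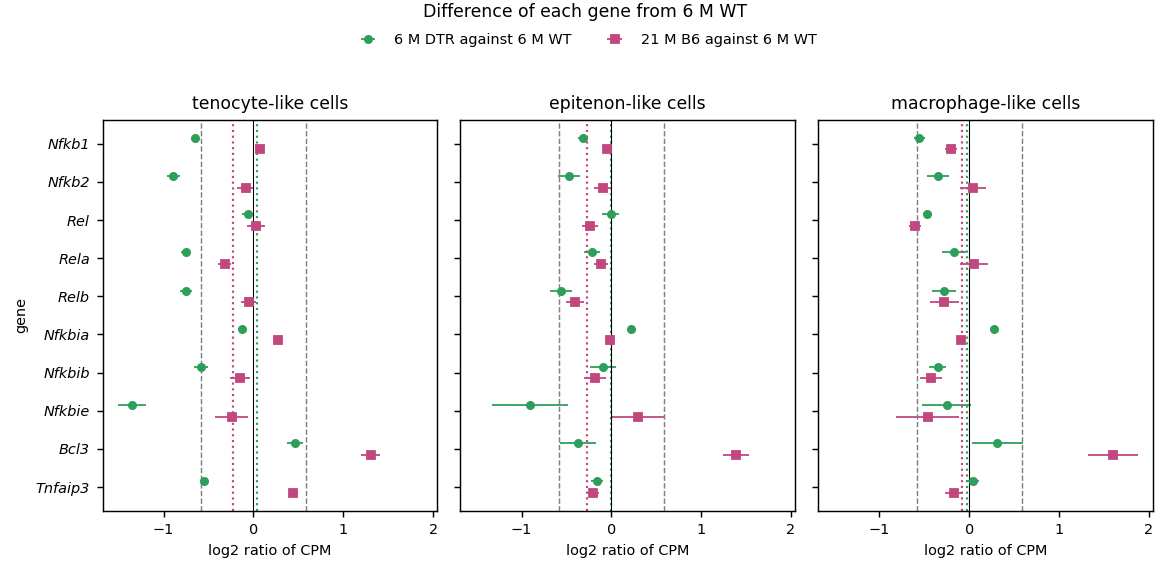
Log2 ratio of CPM against WT for each gene in tenocyte-like, epitenon-like and macrophage-like cells, for DTR and for B6, with exact 95% intervals; dashed lines mark 1.5-fold and dotted lines the median of all genes. In tenocyte-like cells 6 DTR points lie past the lower line, and Bcl3 in B6 lies past the upper line in all 3 classes.

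In epitenon-like cells, which resemble the cells of the tendon surface, none of the 9 genes with at least 10 CPM passed 1.5-fold in DTR, where 1.3% of 7829 genes were higher and 3.51% lower. In cells called female 4 genes passed it (Nfkb1, Nfkb2, Relb and Bcl3), and the log2 ratio of Bcl3 turned from -0.37 in all cells to 0.23 in cells called male. Relb came closest, from 78.7 to 53.4 CPM (ratio 0.678, 0.621 to 0.741), then Nfkb2 from 84.0 to 60.7 CPM (ratio 0.722, 0.664 to 0.785). Nfkbie, under the level limit, had 8.47 and 4.53 CPM (ratio 0.535, 0.397 to 0.716). Nfkbia was above WT, with a ratio of 1.16 (1.14 to 1.18), whereas tenocyte-like cells were below it. Over these genes the median log2 ratio was -0.21, and over all genes -0.01. In B6, Bcl3 was again the only gene past 1.5-fold, from 29.9 to 78.3 CPM (ratio 2.62, 2.37 to 2.89), where 4.48% of 7776 genes were higher and 10.5% lower. This count too is near the share of all genes. After thinning 4.77% (3.55 to 6.26) of the cells had a Bcl3 UMI in WT, 3.61% (2.55 to 4.94) in DTR and 14.5% (13.0 to 16.0) in B6, and without thinning 28.0, 23.5 and 51.9%. Relb was lowest in this comparison, with a ratio of 0.756 (0.704 to 0.812). The immediate early genes summed to 13330.7, 14814.5 and 21375.2 CPM in these cells. The markers of the class also differed. Pi16 stood at 160, 116 and 325 CPM and Efemp1 at 163, 147 and 390, whereas Ccn3 stood at 1645, 1618 and 1370. The part of these differences in the Bcl3 result was not tested.

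Macrophage-like cells, the class with the highest Rel level, held less Rel outside WT. In DTR none of the 10 genes passed 1.5-fold (2.27% of 7352 genes were higher and 3.06% lower). The lowest ratios were 0.681 (0.654 to 0.709) for Nfkb1 and 0.724 (0.697 to 0.751) for Rel, and Nfkbia was above WT at 1.21 (1.18 to 1.24). In B6 Rel went from 592 to 389 CPM (ratio 0.657, 0.626 to 0.689) and Bcl3 from 18.4 to 55.5 CPM (ratio 3.02, 2.50 to 3.66), where 8.05% of 7444 genes were higher and 9.74% lower. The counts of genes past the limit are near these shares. Nfkbib and Nfkbie had ratios of 0.745 (0.684 to 0.811) and 0.727 (0.569 to 0.924). Under 10 other settings of the processing, Rel stayed past 1.5-fold in 4 and Bcl3 in all 10. In this class the immediate early genes summed to 12510.4, 14223.6 and 11261.6 CPM. The median mitochondrial share was 2.92, 3.08 and 5.77%, and a limit of 5% left 472, 899 and 146 of the 525, 1039 and 460 cells. The part of either in the results was not tested.

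**Figure D3:**
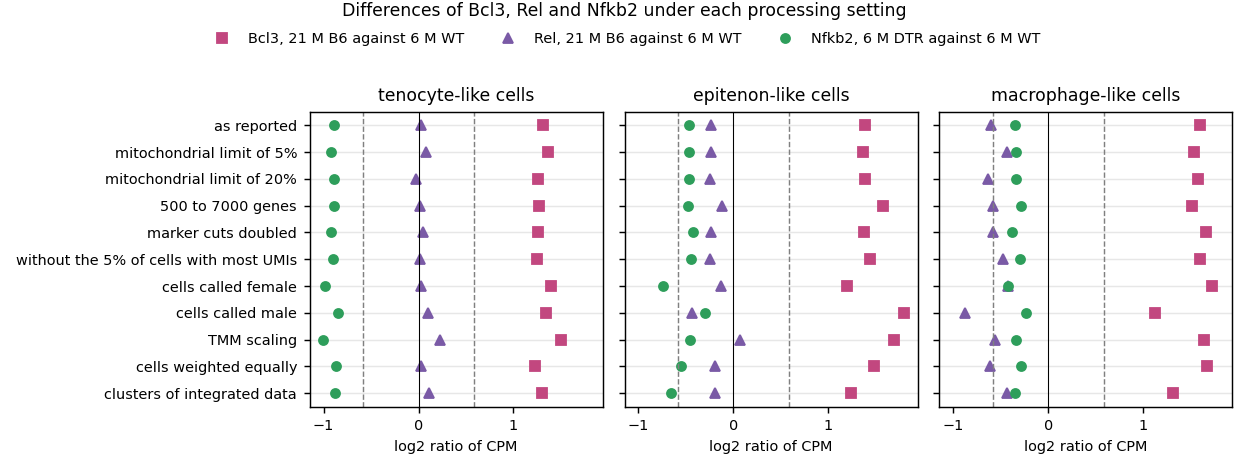
Log2 ratio of CPM under the reported processing and 10 alternatives, for Bcl3 and Rel in B6 against WT and Nfkb2 in DTR against WT, with dashed lines at 1.5-fold. Bcl3 stays past the upper line in tenocyte-like, epitenon-like and macrophage-like cells, Nfkb2 past the lower line in tenocyte-like cells, and Rel in macrophage-like cells falls on either side of it.

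In the smaller classes intervals were wide, and the share of all genes past 1.5-fold was not computed. Bcl3 had a B6 ratio above 1 in all 7 classes, with the interval above 1 in 4, the fourth being the T cell-like class with 8 and 17 UMIs in WT and B6 (ratio 3.31, 1.35 to 8.86). In mural-like cells the ratio was 1.14 (0.850 to 1.52). In DTR, Bcl3 was below WT in endothelial-like cells, at 0.591 (0.450 to 0.772), and in mural-like cells, at 0.680 (0.554 to 0.835), the other direction from tenocyte-like cells. Nfkbia in DTR was above WT in 6 of 7 classes, up to 1.76 (1.45 to 2.15) in Schwann-like cells, and below it in tenocyte-like cells alone. The interval lay above 1 in 5 of the 6. Endothelial-like cells of B6 had 70.6 CPM of Rel against 140.3 in WT (ratio 0.503, 0.373 to 0.672). The ratio in these cells was also low for Nfkb1, at 0.618 (0.505 to 0.754), Nfkb2, at 0.664 (0.457 to 0.953), Rela, at 0.703 (0.549 to 0.897), Tnfaip3, at 0.709 (0.600 to 0.835), and Nfkbie, at 0.231 (0.0583 to 0.672) from 4 UMIs in B6. Of these, Rela and Tnfaip3 did not pass 1.5-fold. The median log2 ratio of the 10 genes was -0.50 and that of all genes -0.25. The mural-like and endothelial-like values of B6 rest on 37 and 98 cells, while 101 further cells passed both gates and were left out (35 in WT and 28 in DTR). Markers of the mural-like and endothelial-like classes also differed between libraries. In mural-like cells Rgs5 stood at 7814, 10546 and 3415 CPM and Myh11 at 1548, 890 and 2040 CPM. In endothelial-like cells Selp stood at 2406, 2550 and 1398 CPM and Emcn at 468, 572 and 308, whereas Egfl7 stood at 639, 559 and 706. The part of this in the mural-like and endothelial-like ratios was not tested.

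In T cell-like cells several genes were above WT, in a class for which the share of all genes past 1.5-fold was not computed. In B6 the ratio was 1.57 (1.36 to 1.81) for Nfkb1, 1.65 (1.27 to 2.15) for Rel and 1.57 (1.35 to 1.83) for Nfkbia, and in DTR it was 1.51 (1.36 to 1.69) for Tnfaip3. Ratios of 2.04 for Nfkbie in B6 and 2.18 for Bcl3 in DTR rest on low WT levels, 12.6 and 6.30 CPM. The median log2 ratio of the 10 genes was 0.49 in B6 and 0.28 in DTR, and that of all genes -0.27 and 0.02. The class is mixed. Cells with Trdc or Cd163l1, markers of γδ T cells, numbered 87, 215 and 44 and held 306, 368 and 262 CPM of Nfkb1 and 108, 101 and 66.0 of Rel. Cells without either numbered 36, 97 and 35 and held 278, 415 and 690.1 CPM of Nfkb1 and 49.5, 128 and 243 of Rel, so the high B6 levels lay in the cells without these transcripts.

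Gates within the tenocyte-like class showed how the DTR levels were spread. Cells high in Saa1, Saa2 and Lcn2, genes of the acute-phase response, numbered 734, 124 and 64 and held 42.1, 21.9 and 24.6 CPM of Nfkbie and 138, 88.6 and 136 of Relb. The remaining 4744, 2898 and 1015 cells held 22.8, 9.44 and 21.5 CPM of Nfkbie and 96.0, 59.3 and 96.1 of Relb. For Nfkbie and Relb DTR was below WT on both sides of the gate. Bcl3 was above WT in DTR on both sides. It stood at 36.5, 79.6 and 73.8 CPM in the high cells and 31.3, 42.3 and 79.7 in the rest. Rel and Nfkbia were above WT in the high DTR cells, with overlapping intervals, and below it in the rest. The other genes were below WT on both sides. Cells high in Slurp1, Serpinb7 and Vcan numbered 1345, 472 and 100 and held 277, 163 and 137 CPM of Nfkb1 and 85.1, 42.9 and 52.5 of Nfkb2, against 297, 191 and 324 and 91.3, 49.4 and 87.8 CPM in the rest. Both genes were thus lower in these cells than in the other tenocyte-like cells of every library. The gap was widest in B6, where it rests on 100 cells, and for Nfkb2 the intervals overlapped in WT and DTR. Among macrophage-like cells, those high in MHC class II transcripts (18, 122 and 51 cells) held 491, 503 and 511 CPM of Tnfaip3 and 682, 579.8 and 423 of Rel, and the other 507, 917 and 409 cells 256, 245 and 203 and 589, 411 and 385 CPM.

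The rest of the pathway was read from gene lists, as counts past 1.5-fold against WT, to be set beside the share of all genes. In DTR tenocyte-like cells that share was 5.57% lower and 6.4% higher. There 3 of 11 receptor genes were lower (Tlr2, Tnfrsf12a and Tnfrsf1b) and 1 higher. Tlr2, a receptor for bacterial lipoproteins, went from 435 to 136 CPM (ratio 0.313, 0.304 to 0.322). Il1rl1, the receptor of interleukin-33, went from 5.37 to 42.4 CPM (ratio 7.90, 7.08 to 8.83), while Il33 itself went from 238 to 152 CPM (ratio 0.637, 0.619 to 0.656). Of 4 ligand genes, Il33 and Il1b were lower, and of 17 adaptor and kinase genes Ripk2, a kinase downstream of NOD receptors, at 0.341 (0.320 to 0.362), and Traf2. Of 11 other inhibitor genes Tnip1, which encodes a partner of A20, was lower at 0.468 (0.438 to 0.500). Of 25 target genes 11 were lower and 3 higher, with a median log2 ratio of -0.19. The acute-phase gene Saa3 went from 642 to 169 CPM (ratio 0.262, 0.256 to 0.269) and the chemokine gene Ccl5 from 10.7 to 38.3 CPM (ratio 3.57, 3.27 to 3.89). Cxcl1, a chemokine gene with the largest counts of the list, had a ratio of 1.11 (1.10 to 1.11). Of the 18 immediate early genes 6 were higher and 2 lower.

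In B6 tenocyte-like cells 9 of 26 targets were higher and 5 lower, where 6.64% of all genes were higher and 11.4% lower. Their median log2 ratio was -0.09, above the -0.23 of all genes. Cxcl5, a neutrophil chemokine gene, went from 3.24 to 18.7 CPM (ratio 5.79, 4.83 to 6.94). Ripk1, the kinase of the TNF receptor complex, went from 108 to 245 CPM (ratio 2.28, 2.19 to 2.37) and was the only 1 of 16 adaptor and kinase genes that was higher, beside 4 that were lower. Of 10 receptor genes 2 were lower and 1 higher, and of 4 ligand genes 2 were lower. Tlr2 (ratio 0.384, 0.368 to 0.401), Il1b, Ripk2 and Saa3 were lower than WT in both DTR and B6. Ccl5, higher in DTR, was lower in B6 at 0.119 (0.0688 to 0.191). Tnfrsf12a, Tnfrsf1b, Il33, Traf2 and Tnip1 were at least 1.5-fold lower in DTR only. None of 11 other inhibitor genes passed 1.5-fold, and Nfkbiz, another atypical IκB gene, was at 0.971 (0.941 to 1.00). Of the immediate early genes 13 of 18 were higher and none lower, with a median of 0.97 and Fos at 2.58 (2.55 to 2.61). Epitenon-like cells of B6 had 13 of 18 immediate early genes higher and none lower (median 0.82), 6 of 25 targets higher and 2 lower, where 4.48% of all genes were higher and 10.5% lower, and Ripk1 was at 2.22 (2.09 to 2.35). In DTR the same class had 1 of 25 targets higher, 9 lower and no immediate early gene past 1.5-fold, where 1.3% of all genes were higher and 3.51% lower.

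In macrophage-like cells of B6 9.74% of all genes were lower and 8.05% higher. Of 5 ligand genes 4 were lower and none higher: Tnf went from 3797 to 1503 CPM (ratio 0.396, 0.387 to 0.405) and Il1a from 1213 to 131 CPM (ratio 0.108, 0.101 to 0.116). Of 24 targets 13 were lower and 2 higher, with a median log2 ratio of -0.74, where that of all genes was -0.09. The neutrophil chemokine gene Cxcl2 had a ratio of 0.398 (0.395 to 0.401), whereas Il6 went from 10.0 to 53.9 CPM (ratio 5.37, 4.24 to 6.87). Of 15 other inhibitor genes 4 were lower, among them the atypical IκB genes Nfkbid, with a ratio of 0.181 (0.159 to 0.205), and Nfkbiz, with 0.468 (0.449 to 0.487). Bcl3 was therefore higher in a class in which these relatives were lower. In DTR 8 of 24 targets were lower and 1 higher, where 3.06% of all genes were lower and 2.27% higher, and Tnf had a ratio of 0.539 (0.530 to 0.547).

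**Figure D4:**
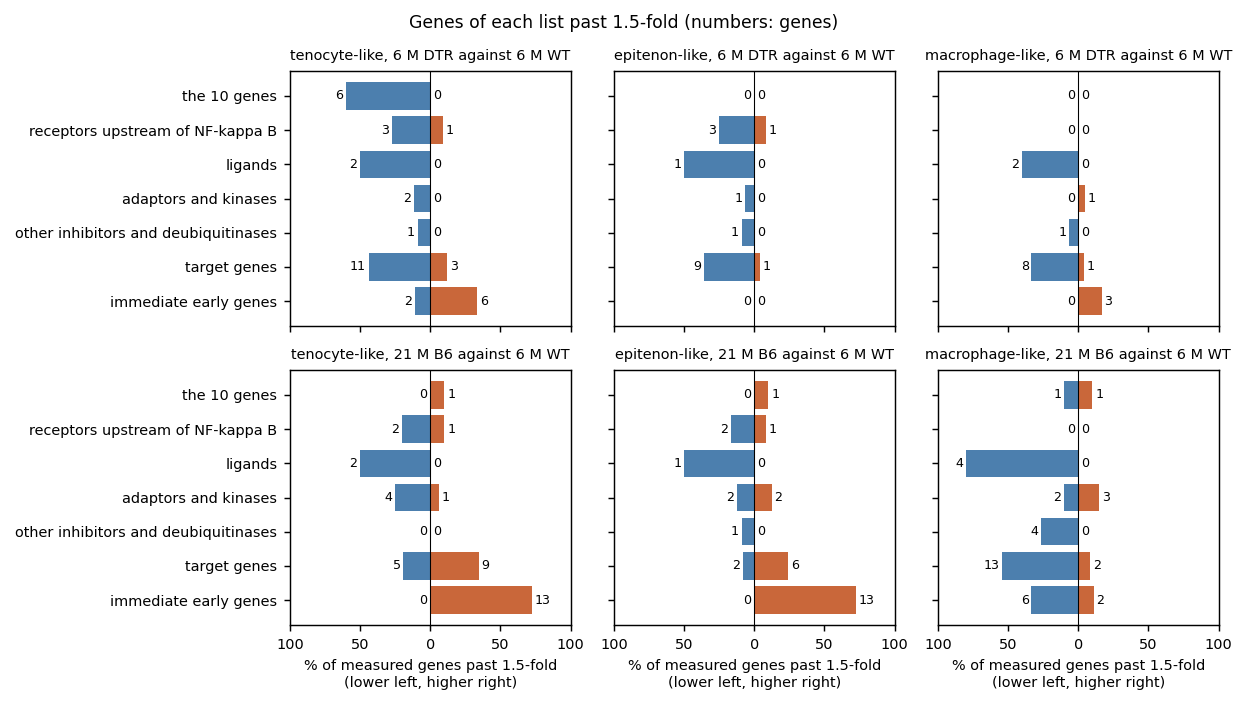
Share of the measured genes of each list, in percent, that were at least 1.5-fold lower (to the left) or higher (to the right) than in WT, for DTR and B6 in 3 cell classes. The NF-κB factors and inhibitors have 6 lower genes in DTR tenocyte-like cells, and immediate early genes have 13 higher genes in tenocyte-like and epitenon-like cells of B6 and 6 lower in macrophage-like cells.

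Likeness between genes was measured by Pearson's correlation of log2(CPM + 10) over 20 class and library profiles of at least 50 cells, among 9952 genes. Rel was close to Slc7a8 and Gpr84 (0.93 each), and the nearest gene was Irf5 for Nfkbib (0.91), Yars for Rela (0.91), Anxa3 for Nfkbia (0.95), Sbno2 for Bcl3 (0.92) and Elf4 for Tnfaip3 (0.86). Within the set Nfkb1 and Nfkb2 were the closest pair (0.83), then Relb and Nfkbie (0.79) and Rel and Nfkbib (0.77). Rela ran against Nfkbib (-0.55) and Rel (-0.45). The profiles share libraries and depth, so these values describe them and carry no test.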

How the data were processed

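Chromium 3′ libraries of FDL cells were analysed from the count matrices deposited by the authors, whole numbers of UMIs per gene and barcode that were not normalized. The matrix headers name Cell Ranger 6.0.1 and the submitters' processing notes 2.1.1. Genome build and strand setting: not given in the sources used here. The cell filter asked for 1000 to 5000 detected genes and no more than 10% mitochondrial UMIs. A cell entered a class when its marker UMIs per 10000 reached a limit (40 tenocyte, 10 epitenon, 20 macrophage, 8 T cell, 10 endothelial, 20 mural, 8 Schwann) with at least 3 markers detected. A class is thus a range of a score and not a type: 352, 158 and 253 cells lay near the tenocyte limit, between 30 and 50. Cells that passed both the tenocyte and the epitenon gate, and no other, were kept as tenocyte-like. Other cells passing more than 1 gate (120, 141 and 152) were left out as possible doublets. No doublet caller was run, and 688, 556 and 585 cells passed no gate. Libraries shared 15 (WT and DTR), 14 (WT and B6) and 13 (DTR and B6) barcodes.

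UMIs were summed by class and library. Levels have exact Poisson, ratios exact conditional binomial and shares exact binomial 95% intervals. With 1 library per group no test was possible, and a gene counted as past the limit at 1.5-fold, given at least 10 CPM in either library. Free RNA was estimated as the share of the source class's marker level found in a class, times the gene's level in that source. All marker UMIs found there count as free RNA, so a class's own expression of the markers would raise the estimate. Pathway lists name the genes with the largest counts and the largest ratios, and likeness genes among the 3 nearest, not all of which are reported here; genes outside this rule, such as Tnfrsf1b and Traf2, were named after their values were seen. The genes, lists and gates were chosen with earlier results of these data known, and gate limits after the score distributions were seen. Alternatives changed the cell filters, gates, sex, weighting, scaling (TMM, edgeR 4.0.16) and classes (Seurat 5.3.0 clusters). Scripts were tested on simulated data and used Python 3.11.15, numpy 2.4.6, scipy 1.17.1, pandas 2.3.3 and R 4.3.3. Gene positions are from GENCODE M21 on GRCm38.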

Additional observations from a re-analysis of the deposited data

Results flagged for a closer look

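Some ratios to WT passed 1.5-fold in opposite directions in different cell classes, with intervals that did not include 1 and a minimum of UMIs. Other genes, such as Nfkbia and Tnfaip3 in DTR, had intervals on both sides of 1 without passing 1.5-fold in both directions. These differences between classes were not tested, since each group is 1 library. For Nfkb1 the DTR ratio was 1.70 in Schwann-like and 0.639 in tenocyte-like cells. For Nfkb1 in B6 it was 1.57 in T cell-like and 0.618 in endothelial-like cells. For Rel in B6 it was 1.65 in T cell-like and 1.71 in mural-like cells, against 0.657 in macrophage-like and 0.503 in endothelial-like cells. The mural-like markers Rgs5 and Myh11 and the endothelial-like markers Selp and Emcn also differed between these libraries, as given above.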

How the results depend on the processing

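The counts of genes past 1.5-fold were recomputed under 10 alternatives, and 45 of 60 stayed within 1.5 times the reported count. In tenocyte-like cells of B6 the count of 1 became 2 with a 5% mitochondrial limit and with TMM scaling, as Tnfaip3 joined Bcl3. In epitenon-like cells of DTR the count of 0 became 4 in cells called female (Nfkb1, Nfkb2, Relb and Bcl3), 1 with cells weighted equally and 2 with clusters of integrated data. In epitenon-like cells of B6 the count of 1 became 2 with TMM scaling. In macrophage-like cells of DTR the count of 0 became 1, Nfkb1, in cells called female, with cells weighted equally and with clusters. In macrophage-like cells of B6 the count of 2 became 1, as Rel dropped out, with a 5% mitochondrial limit, without the 5% of cells with most UMIs, in cells called female, with TMM scaling and with clusters, and 4 in cells called male; with a wider range of genes per cell it stayed 2, but with Nfkbie in place of Rel. The causes were not tested. In tenocyte-like cells of DTR the count ran from 5 to 7, with Nfkbib lost under 4. No value past 1.5-fold changed sign, and Bcl3 in B6 stayed past it in all 3 classes under all 10. Of 600 single log2 ratios 441 stayed within the interval of the reported value. The median log2 ratio moved by more than the median half-width of the genes' intervals in 9 cases and by no more in 51. The share of all genes past 1.5-fold, both directions together, was recomputed with a level limit of 2 CPM in place of 10. It changed by more than 1.5 times in 2 comparisons and by no more in 4. The DTR log2 ratio of Bcl3, not past 1.5-fold, changed sign in epitenon-like cells called male (0.23) and in macrophage-like clusters (-0.05). No library could be left out. No paired analysis was possible because each group is 1 library and the results come from no test. Depth limits the 4 smaller classes, from 336707 UMIs in mural-like cells of B6 to 2621403 in T cell-like cells of DTR.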
